A study of Mus musculus with 18 samples.

Results

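The antioxidant response genes described here are 10 genes: Nfe2l2, Keap1, Hmox1, Nqo1, Gclc, Gclm, Txnrd1, Slc7a11, Sod1 and Sod2. Their open chromatin was read from 18 lists of ATAC-seq peaks of whole mouse retina (ATAC-seq marks accessible DNA by where a transposase can insert). A peak was assigned to a gene when it overlapped the stretch from 10 kb upstream of the annotated gene start to the gene's end, called the window below. The 10 windows held 338 of the 911837 peaks. Overlapping peaks of the different libraries were joined, which gave 32 of 99792 merged regions, and 25 of these had a peak in at least 2 libraries (of 73567 such consensus regions). A library "called" a region when it had a peak in it.

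The retinas came from WT (wild-type) mice and fell into 6 groups of 3 libraries: 3-month-old (3mo) and 18-month-old (18mo) untreated retinas, retinas of eyes whose intraocular pressure had been raised to 30 mmHg for 1 h (IOP), and the opposite eyes left without pressure (contralateral control). IOP and contralateral retinas were collected on day 2 per the labels, while the study's text gives a later day. Untreated libraries carry replicate numbers 4 to 6 and the others 1 to 3. The treatment text shared by all samples names the drug dasatinib and its vehicle, and no label places a library in either arm. The retina is a bulk tissue, so that fewer cells of a type with an open region and a less open region in each cell cannot be told apart. No label says that replicates came from separate animals or that same-numbered IOP and contralateral retinas came from 1 animal, so the p-values below measure the spread between these libraries.

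As background, Nfe2l2 encodes NRF2, the transcription factor that switches on genes against oxidative and electrophilic stress. Under resting conditions KEAP1 holds NRF2 in the cytoplasm and passes it to a ubiquitin ligase; when reactive cysteines of KEAP1 are modified, NRF2 accumulates, pairs with a small MAF protein and binds antioxidant response elements near its targets. Hmox1 (heme breakdown), Nqo1 (quinone reduction), Gclc and Gclm (the subunits of the enzyme that limits glutathione synthesis), Txnrd1 (thioredoxin reduction) and Slc7a11 (cystine uptake) are classic targets, and Sod1 and Sod2 encode the cytosolic and mitochondrial superoxide dismutases. The retina consumes much oxygen and is exposed to light, and photoreceptors and ganglion cells are known to be sensitive to oxidative damage.

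The sequences that carry a match to the antioxidant response element at these genes are shown first, since NRF2 is known to bind such elements. An element was searched as TGACNNNGC on both strands in the 300 bases around the median peak summit of each region. It was present in 7 of the 25 consensus regions (28.0%), against 14.1% of 73449 consensus regions on assembled chromosomes and 14.5% of the 24729 called in all 18 libraries. All 7 were among the 11 of the 25 that were called in all 18 libraries, and the 14.5% is the share to set beside those 11. No test of these shares was made, since the genes were chosen with results of these data known. Regions are named by the gene and the distance in bp of the median summit from the annotated gene start, with a minus sign for upstream. The 5 whose match lies outside annotated UTRs are printed from the GRCm38 (mm10) genome, with UTR bases left out and the matches in capitals; all matches lie on the minus strand, so that the capitals show the reverse complement of the motif.
Hmox1 -9633 (chr8:75083838-75084137, plus strand, 300 bases): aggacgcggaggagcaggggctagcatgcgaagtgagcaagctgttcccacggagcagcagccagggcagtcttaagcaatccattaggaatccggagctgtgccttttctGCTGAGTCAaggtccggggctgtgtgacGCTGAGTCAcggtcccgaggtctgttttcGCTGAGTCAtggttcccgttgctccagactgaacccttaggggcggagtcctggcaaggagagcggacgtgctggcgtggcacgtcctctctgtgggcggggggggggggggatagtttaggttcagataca
Gclc -3704 (chr9:77750681-77750980, plus strand, 300 bases): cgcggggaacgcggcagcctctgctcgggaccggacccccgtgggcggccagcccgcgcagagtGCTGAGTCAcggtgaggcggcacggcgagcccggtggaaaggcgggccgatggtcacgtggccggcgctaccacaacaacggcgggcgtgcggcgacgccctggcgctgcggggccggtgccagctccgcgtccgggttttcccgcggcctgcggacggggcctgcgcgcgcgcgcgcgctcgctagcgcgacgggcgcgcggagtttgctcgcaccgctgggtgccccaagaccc
Gclm -116 (chr3:122245291-122245556, plus strand, 266 bases): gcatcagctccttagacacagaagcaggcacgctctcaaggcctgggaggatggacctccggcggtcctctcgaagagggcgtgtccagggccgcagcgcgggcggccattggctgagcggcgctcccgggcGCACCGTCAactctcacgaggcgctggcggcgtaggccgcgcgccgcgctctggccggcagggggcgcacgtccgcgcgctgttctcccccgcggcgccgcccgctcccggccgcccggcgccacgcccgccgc
Txnrd1 +25233 (chr10:82859034-82859178, plus strand, 145 bases): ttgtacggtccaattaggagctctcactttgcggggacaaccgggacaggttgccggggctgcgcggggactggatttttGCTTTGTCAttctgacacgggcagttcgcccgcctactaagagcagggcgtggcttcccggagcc
Sod1 -66 (chr16:90220538-90220753, plus strand, 216 bases): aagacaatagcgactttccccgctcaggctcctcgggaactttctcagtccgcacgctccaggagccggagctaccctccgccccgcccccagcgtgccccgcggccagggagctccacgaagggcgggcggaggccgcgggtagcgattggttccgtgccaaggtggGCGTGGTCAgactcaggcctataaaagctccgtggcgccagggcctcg

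The Hmox1 upstream region held 3 copies of the same 9 bases, TGACTCAGC, at 35 and 7 bp before and 22 bp after the median summit. The Gclc upstream region held 1 copy of the same letters. These 4 matches also contain TGANTCA, the pattern searched for an AP-1 site. It allows any base in the middle, so it is looser than the TGAGTCA or TGACTCA read here on the 2 strands. The pattern was present in 9.10% of all consensus regions and in 2 of the 25 regions (these 2). The promoter matches differed in the 3 free bases: TGACGGTGC at Gclm, TGACAAAGC at Txnrd1 and TGACCACGC at Sod1. The other 2 matches, TGACTAAGC in the Keap1 promoter region and TGACCCTGC in the Sod2 promoter region, lie in UTR bases and are not shown in context. A match is a description of these letters, and no binding was measured.

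The peak lists set limits on what can be compared. Lists held 36011 to 66160 peaks with a median of 50431.5, and the lists do not give the number of reads behind each of them. Every untreated list (6) had a shortest peak of 79 to 89 bp. Among contralateral and IOP lists, 5 had one of 114 to 122 bp (short class below) and 7 one of 148 to 157 bp (long class below). The kind of control, contralateral or untreated, therefore moves with how the peaks were listed, and its values stand beside those of age. Among retina marker genes, the promoters of Nrl, Crx, Arr3, Glul, Pou4f1, Slc6a9 and Onecut1 were called in all 18 libraries and those of Grm6, Rlbp1 and Rbpms in 9, 9 and 15. Promoters of 0 of 7 marker genes of other tissues (Rpe65, Cdh5, Krt5, Alb, Myh6, Cd3e, Pdx1) were called in any library, and the levels of their RNA were not measured.

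Most of the 10 genes had an open promoter in every retina. A promoter region (one that overlaps the stretch between 1 kb before and 100 bp after a transcript start) was called in all 18 libraries for 8 of the 10 genes, against 53.1% of 21938 protein-coding genes. No promoter region was called in any library for 35.8% of protein-coding genes, and none of the 10 was among them. The exceptions were Nqo1, whose promoter region was called in 14 libraries, and Slc7a11, whose promoter region was called in 3. Over all 25 consensus regions, 11 (44%) were called in all 18 libraries against 33.6% of all consensus regions, and the median number of libraries with a call was 16 against 12. These shares describe the genes; no test was made, since the genes were chosen with results of these data known.

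**Figure D1:**
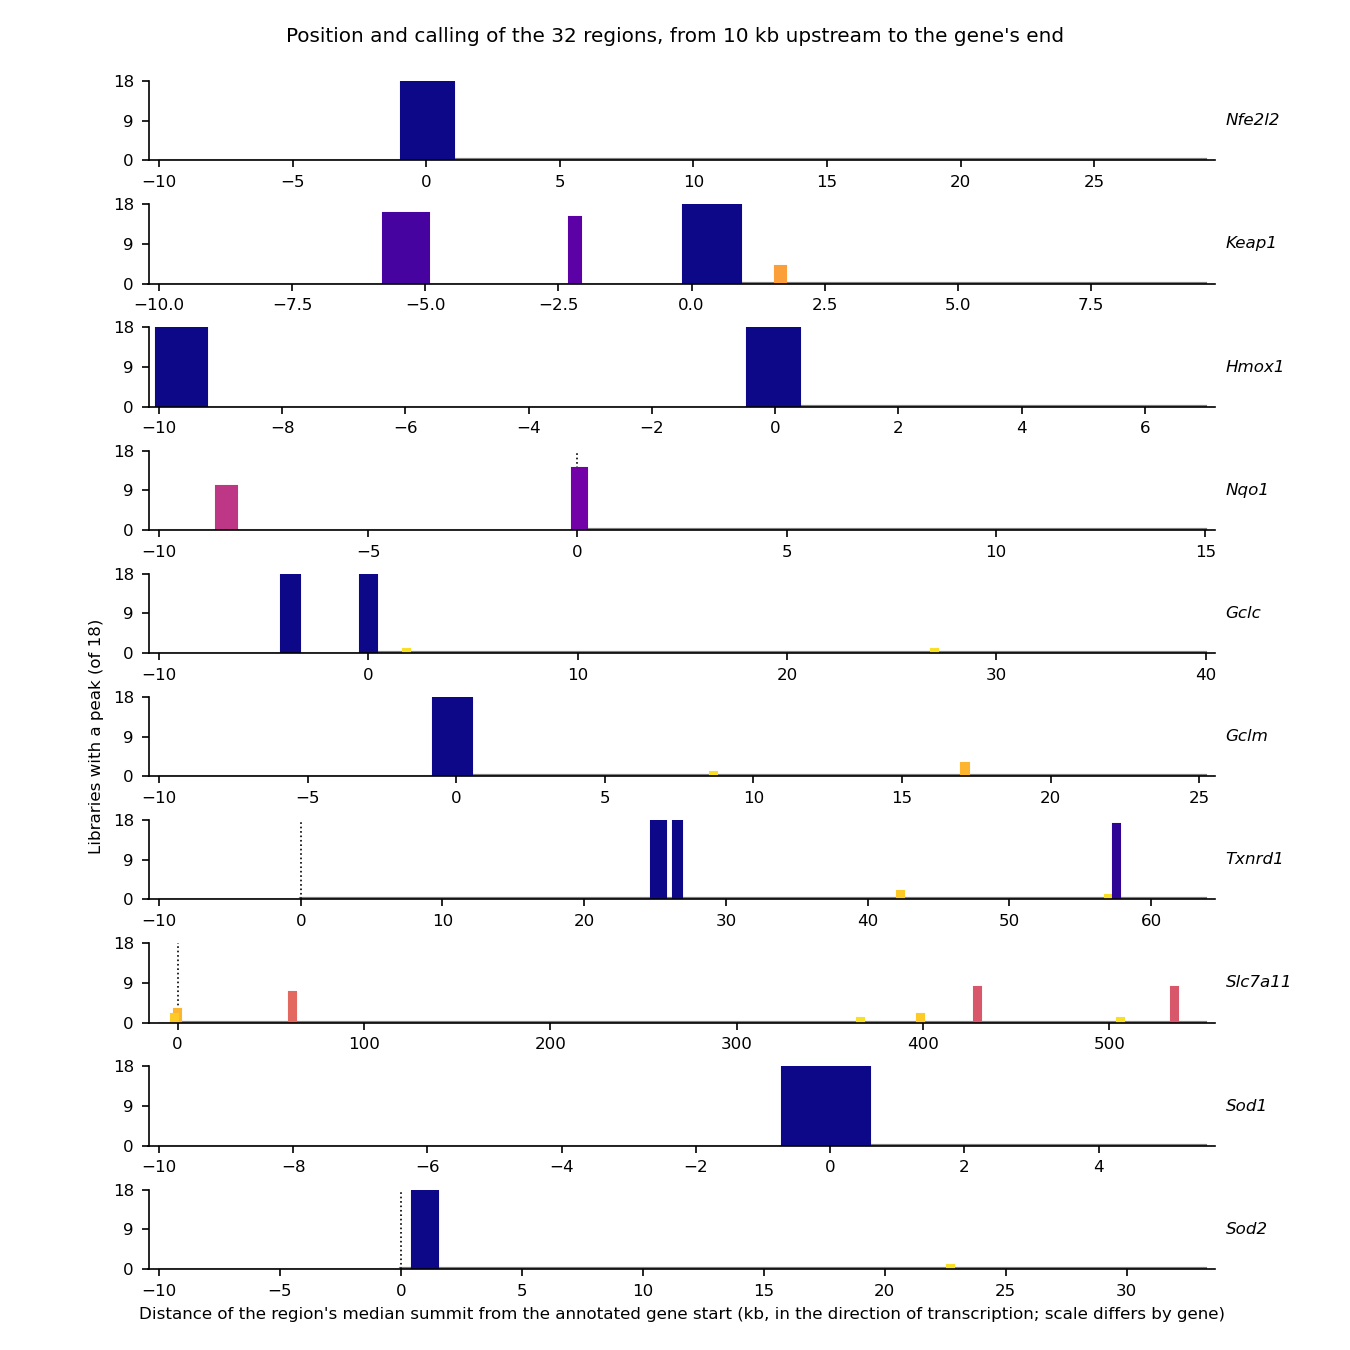
Each panel shows 1 gene, with the distance of a region's median summit from the annotated gene start on the x axis (kb, in the direction of transcription) and the number of libraries with a peak there on the y axis (of 18); bars are as wide as the region or, for short regions, a minimum width. Bars of full height stand at the gene starts of Nfe2l2, Keap1, Hmox1, Gclc, Gclm and Sod1, and inside the annotated gene for Txnrd1 and Sod2, while no bar of Slc7a11 or Nqo1 reaches 18.

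The 32 regions fell into 11 promoter, 6 upstream, 2 exon and 13 intron regions. Of the promoter regions 9 were called in all 18 libraries, of the upstream regions 2, and of the exon and intron regions 0. The 7 regions found in 1 library were all in introns: 2 each in Gclc and Slc7a11 and 1 each in Gclm, Txnrd1 and Sod2. Regions called everywhere were also the wide, high-ranking ones. Their peaks' median rank by −log10 q within their own library's list ran from percentile 70.9 to 97.8, against 7.66 to 63.1 for the regions in 2 to 17 libraries and 6.36 to 33.4 for those in 1 library. Their merged widths were 660 to 1972 bp, against 123 to 861 bp for the other consensus regions.

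**Figure D2:**
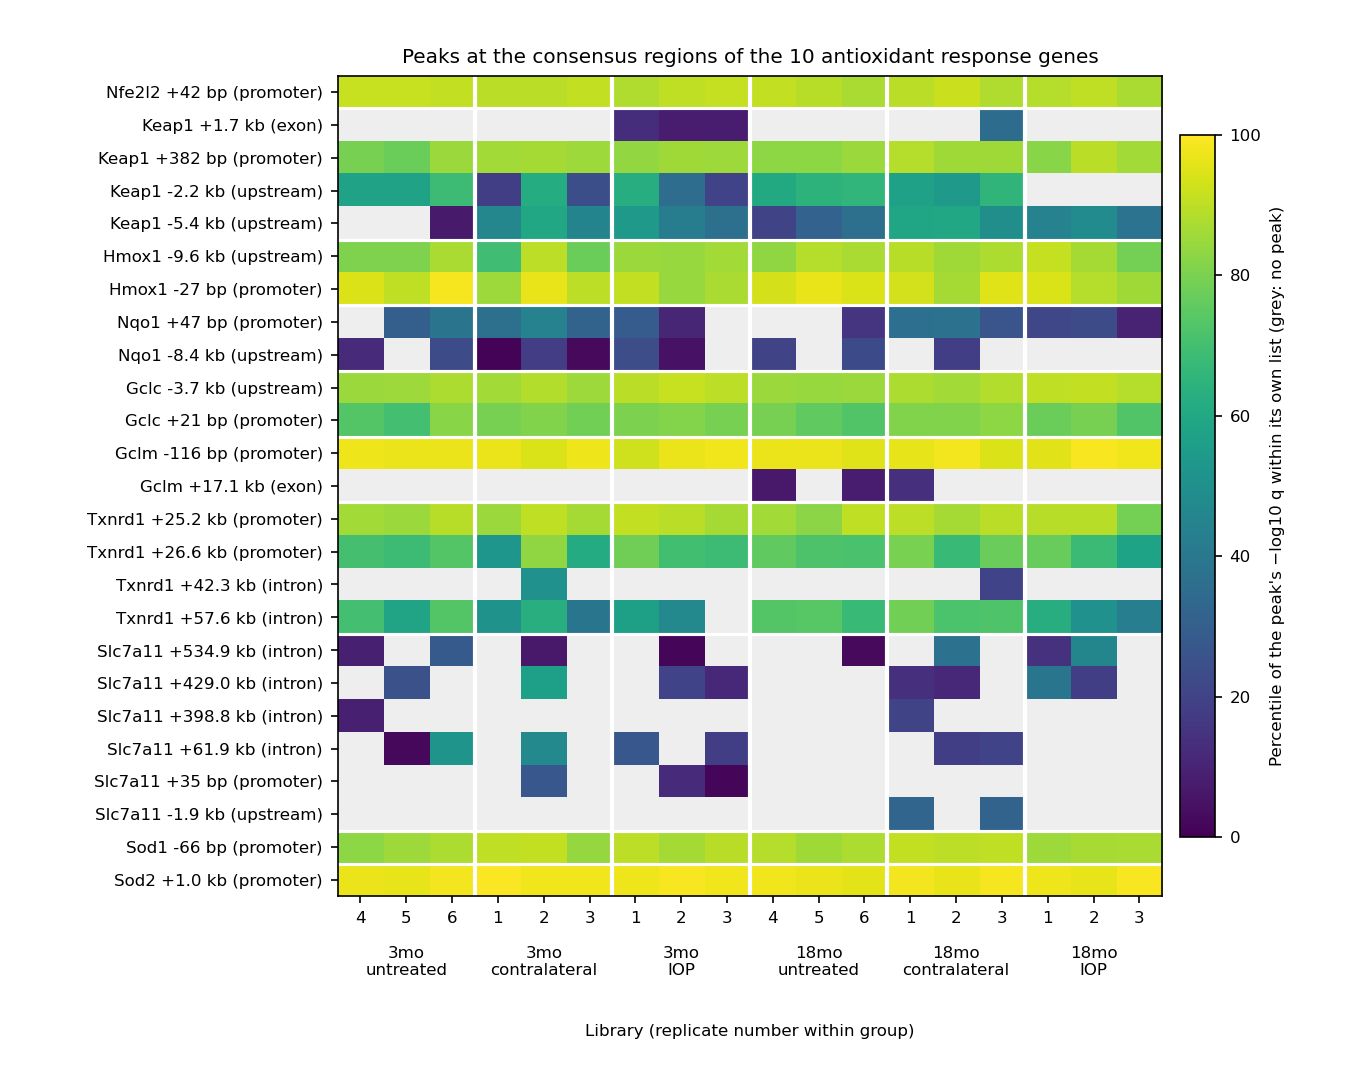
Rows are the 25 consensus regions, named by gene, distance from the annotated gene start and place, and columns are the 18 libraries by group; colour gives the percentile of the peak's −log10 q within its own library's list, and grey marks a library with no peak. Full bright rows are the 11 regions called in all libraries, and the grey cells gather in Keap1, Nqo1, Gclm, Txnrd1 and Slc7a11.

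Nfe2l2, the transcription factor gene itself (chr2:75675513-75704641, minus strand), had a single region over its whole window, at its promoter (chr2:75703433-75705404). It was called in all 18 libraries with a median rank at percentile 90.0 (range 87.2 to 92.1), and it also covers the promoter of the neighbouring E030042O20Rik. In all 12 contralateral and IOP libraries it was 1 peak of 1831 to 1961 bp. Untreated libraries split it: 3mo retinas held 3, 2 and 3 peaks and 18mo retinas 1, 2 and 2. The number of peaks was therefore 1.17 lower in contralateral than in untreated controls (unadjusted p = 0.0152, exact permutation test, two-sided, n = 6 per side; Benjamini-Hochberg adjusted p = 0.236 over 15325 genes). It was the only one of the 10 genes past an unadjusted threshold of 0.05 in this comparison, in which 10.1% of all genes tested passed. The promoter was thus open in every group, and its division into peaks moved with the kind of control, which cannot be told apart from how the lists were made.

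Keap1, the inhibitor of NRF2 (chr9:21229730-21239361, minus strand), was the gene with calls that separated IOP from contralateral retinas at 1 age. Its promoter region (Keap1 +382, chr9:21238417-21239519) was called in all 18 libraries at a median rank of 85.3 (77.5 to 89.7). Another region 2193 bp upstream (chr9:21241460-21241693) was called in 3 of 3 libraries of every group other than 18mo IOP, where 0 of 3 called it. One 5363 bp upstream, in an exon of the neighbouring gene S1pr5 (chr9:21244265-21245125), was called in 1 of 3 3mo untreated libraries and 3 of 3 in each other group. The last lay in an exon of Keap1 itself, 1670 bp into the gene (chr9:21237596-21237805), and was called in 3 of 3 3mo IOP libraries, in 1 18mo contralateral control and in no other library.

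The number of peaks in the Keap1 window followed these calls. The 3mo IOP libraries held 4 peaks each and the 3mo contralateral controls 3 each, so that the groups did not overlap (0.447% of the 11859 protein-coding genes whose number varied in these libraries had more peaks in every IOP library). The 18mo IOP libraries held 2 each, and the 18mo contralateral controls 3, 3 and 4 (3.33 ± 0.577, SD, n = 3), again without overlap and in the opposite direction. At that age the IOP lists were 21.2% shorter, and 7.42% of the 12229 genes whose number varied had fewer peaks in every IOP library. Untreated retinas held 2, 2 and 3 peaks at 3 months and 3 each at 18 months. The effect of IOP was 1 peak more at 3 months and 1.33 fewer at 18 months, a difference of −2.33 (exact permutation test within age, p = 0.005, the smallest these 400 arrangements can give; adjusted p = 1 over 13532 genes, of which 51 reached an unadjusted p under 0.05). No gene of the genome passed the adjustment for this difference. With a stricter threshold (−log10 q of at least 5) the difference was −1.33 (p = 0.2, exact permutation test), and with the same number of peaks taken from each list it was −1 (p = 0.1, exact permutation test), and neither passed 0.05.

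The region 2193 bp upstream of Keap1 was the only one of the 25 lost with IOP at 18 months (3 of 3 contralateral and 0 of 3 IOP), where 2.23% of all consensus regions were lost and 0.239% gained (0 of the 25). In the 18mo contralateral libraries its peaks ranked at percentiles 57.3, 53.5 and 65.6 with folds over local background of 4.03, 3.64 and 4.77. In 3mo IOP they ranked at 62.4, 35.7 and 20.1 and in 3mo contralateral controls at 18.7, 62.0 and 24.0. Its rank varied with the class of the list at 3 months: both short-class libraries lay at or above 62.0 and the 4 long-class ones at or below 35.7. At 18 months the call was present in both short-class and the long-class contralateral library and absent in the short-class and both long-class IOP libraries. The 18mo IOP lists were also 21.2% shorter than the contralateral ones (44474 ± 7329 against 56406 ± 4856 peaks, SD, n = 3). With the same number of peaks taken from every list, the 3 contralateral calls at 18 months remained. That setting only removes peaks, so it could not have restored a call in IOP. Whether list length plays a part was not tested. Across both ages its exact conditional test gave p = 0.1, unadjusted.

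The exon region of Keap1 was the only one of the 25 gained with IOP at 3 months, where 0.217% of all consensus regions were gained and 0.241% lost (0 of the 25). Its peaks ranked at percentiles 13.0, 7.77 and 7.83 in the 3 IOP libraries, with folds of 2.56, 2.39 and 2.34, which places them near the bottom of those lists. The 1 other call, in 18mo contralateral control replicate 3, ranked at 35.5. No library called the region at the stricter threshold in 3mo IOP, and the change of its IOP effect from 3 to 18 months had an unadjusted p = 0.05 by the exact permutation test, with 75 of 44234 regions under 0.05. Neither Keap1 region held an antioxidant response element or an AP-1 match in the 300 bases searched. Their sequences are printed because these are the 2 regions whose calls separated IOP from contralateral retinas at 1 age, a choice made after their values were seen; UTR bases of the exon region are left out.
Keap1 -2193 (chr9:21241404-21241703, plus strand, 300 bases): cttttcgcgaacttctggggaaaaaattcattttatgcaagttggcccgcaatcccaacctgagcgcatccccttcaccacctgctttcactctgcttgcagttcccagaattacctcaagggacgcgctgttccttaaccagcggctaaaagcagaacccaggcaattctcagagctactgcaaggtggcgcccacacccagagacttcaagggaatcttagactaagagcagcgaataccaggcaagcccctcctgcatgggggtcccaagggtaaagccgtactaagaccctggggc
Keap1 +1670 (chr9:21237541-21237709, plus strand, 169 bases): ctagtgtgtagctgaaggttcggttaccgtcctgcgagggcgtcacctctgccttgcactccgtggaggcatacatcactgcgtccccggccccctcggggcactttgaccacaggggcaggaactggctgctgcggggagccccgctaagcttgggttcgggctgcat

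**Figure D3:**
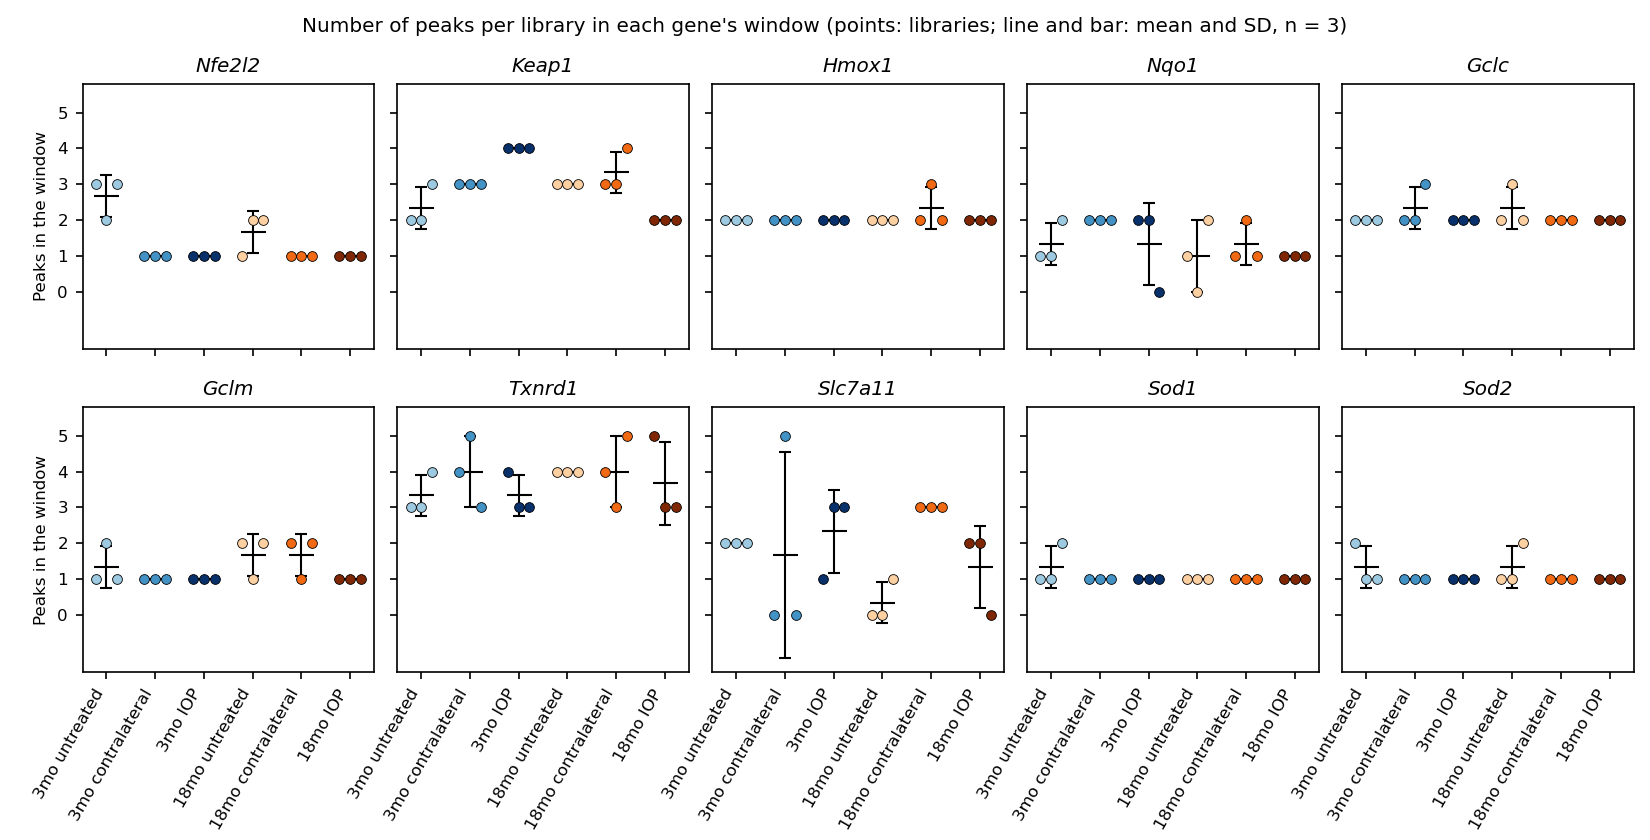
The y axis gives the number of peaks in each gene's window, the x axis the 6 groups; points are the 18 libraries, and lines with bars are group means with the SD (n = 3). Keap1 stands at 4 in each 3mo IOP library and at 2 in each 18mo IOP library, the untreated libraries of Nfe2l2 rise to 3, and Slc7a11 spreads from 0 to 5.

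Hmox1, the inducible heme oxygenase (chr8:75093621-75100589, plus strand), had 2 regions, both called in all 18 libraries. The promoter region (Hmox1 −27, chr8:75093168-75094034) had a median rank of 91.9 (84.5 to 98.8) and a median fold of 18.6. The upstream region with the 3 elements (Hmox1 −9633, chr8:75083473-75084304) had a median rank of 85.9 (69.3 to 91.2) and a median fold of 18.0, and lay at the outer edge of the window. The lowest rank at the upstream region was in 3mo contralateral control replicate 1 and the highest in 18mo IOP replicate 1. Each library held 2 peaks in the window except 18mo contralateral control replicate 2, which held 3. Hmox1 passed no test in any comparison (p = 1 for age, IOP and the kind of control, exact permutation tests).

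Gclc, the catalytic subunit of glutamate-cysteine ligase (chr9:77754535-77794485, plus strand), likewise had a promoter region (Gclc +21, chr9:77754339-77755149) and an upstream region (Gclc −3704, chr9:77750374-77751267) called everywhere. The upstream region, with its single element, ranked higher (median 87.8, 84.6 to 91.7) than the promoter region (median 79.4, 70.2 to 82.9), in each of the 18 libraries. Its rank was 89.6, 91.7 and 90.0 in 3mo IOP and 86.1, 88.6 and 85.5 in 3mo contralateral controls; at 18 months it was 90.5, 90.7 and 88.8 in IOP and 87.8, 86.3 and 88.6 in contralateral controls. Every IOP library thus lay above every contralateral one of its age, although at 18 months the nearest values were 88.8 and 88.6. It was the only one of the 11 regions called everywhere with such a separation, which 0.178% of the 24751 regions called in all libraries showed in this direction and 0.719% in the other. Ranks depend on what else is in each list, and no test was made, since this comparison was chosen after the values were seen. Gclm, the modifier subunit (chr3:122245557-122270732, plus strand), had its promoter region (Gclm −116, chr3:122245115-122246417) called everywhere at a median rank of 97.2 (92.7 to 98.9) and a median width of 1135 bp. A second region lay in a Gclm exon 17110 bp into the gene, shared with Gm17494. It was called in 2 18mo untreated libraries and 1 18mo contralateral control, and in no 3mo and no 18mo IOP library. The unadjusted p for age was 0.182 (Fisher's exact test, two-sided). Its peaks ranked at percentiles 6.97 to 13.7, near the bottom of their lists.

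Txnrd1, cytosolic thioredoxin reductase (chr10:82833951-82897712, plus strand), was open not at its annotated gene start, which belongs to a single long transcript, but at the starts of its shorter transcripts inside the gene. Both promoter regions there (Txnrd1 +25233, chr10:82858819-82859916, and Txnrd1 +26574, chr10:82860127-82860786) were called in all 18 libraries, at median ranks of 87.8 and 70.9. The first lay 5 bp from a transcript start and also covers the promoter of Gm38560. It was made of 29 peaks, 1 or 2 in a library. An intron region 57576 bp into the gene was called in 17 libraries, all but 3mo IOP replicate 3, at a median rank of 63.1. The window held 3 to 5 peaks over the 18 libraries, and the groups overlapped.

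Nqo1, the quinone reductase (chr8:107388225-107403206, minus strand), had a weak promoter region (chr8:107403021-107403397). It was called in 14 libraries: 2 of 3 3mo untreated, 3 of 3 3mo contralateral, 2 of 3 3mo IOP, 1 of 3 18mo untreated, 3 of 3 18mo contralateral and 3 of 3 18mo IOP. Its median rank was 29.6 (10.1 to 44.5) and its median fold 5.34. In the 6 contralateral controls it was called 6 times and in the 6 untreated 3 times (unadjusted p = 0.182, Fisher's exact test, two-sided). An upstream region 8392 bp away (chr8:107411401-107411914) was called in 10 libraries, 7 of 9 at 3 months and 3 of 9 at 18 months, with ranks from 1.10 to 23.8. Among the 12 controls these were 5 of 6 at 3 months and 3 of 6 at 18 months (unadjusted p = 0.545, Fisher's exact test, two-sided). 3mo IOP replicate 3 and 18mo untreated replicate 5 held no peak in the window at all.

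Slc7a11, the cystine-glutamate exchanger (chr3:49892526-50443614, minus strand), had the longest window and the fewest calls per region. The annotated gene is 551089 bp long because of 1 transcript, while the other is 78674 bp, and 5 of its 8 regions lay beyond the end of the shorter one. Its promoter region (chr3:50443507-50443785) was called in 3mo contralateral control replicate 2 and 3mo IOP replicates 2 and 3 only, at ranks of 27.2, 12.5 and 1.21. A peak upstream of it (Slc7a11 −1901) was found in 2 of 3 18mo contralateral controls and nowhere else. The number of peaks was 2, 2 and 2 in 3mo untreated libraries, 0, 5 and 0 in 3mo contralateral, 1, 3 and 3 in 3mo IOP, 0, 0 and 1 in 18mo untreated, 3, 3 and 3 in 18mo contralateral, and 2, 2 and 0 in 18mo IOP. The spread within 3mo contralateral controls (1.67 ± 2.89, SD, n = 3) spanned that of all groups, and the library with 5 peaks had the longest list. At 18 months contralateral controls held more peaks than every untreated library, as did 6.36% of the 13375 genes whose number varied, and IOP fewer than every contralateral one, as in the 7.42% of genes given for Keap1. Neither IOP (−0.5 peaks over both ages, p = 0.745) nor the kind of control (1.17 peaks more in contralateral, p = 0.284) passed the exact permutation test.

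The promoters of the superoxide dismutase genes, which clear superoxide in the cytosol (Sod1) and in mitochondria (Sod2), were open in every library. The Sod1 promoter region (chr16:90220230-90221543, with the gene at chr16:90220754-90226329, plus strand) and the Sod2 promoter region (chr17:13007461-13008516, with the gene at chr17:13006846-13040063, plus strand) were called in all 18 libraries. Sod2 ranked at a median of 97.8 (96.0 to 99.3), the highest of the 32 regions, with a median fold of 15.0, and Sod1 at 87.6 (82.9 to 90.8) with a median fold of 12.1. The Sod2 region lay 29 bp past the start of its basic transcript, 1000 bp into the annotated gene. Both windows held 1 peak in 17 and 16 of the libraries respectively, and 2 in the rest, all of them untreated.

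**Figure D4:**
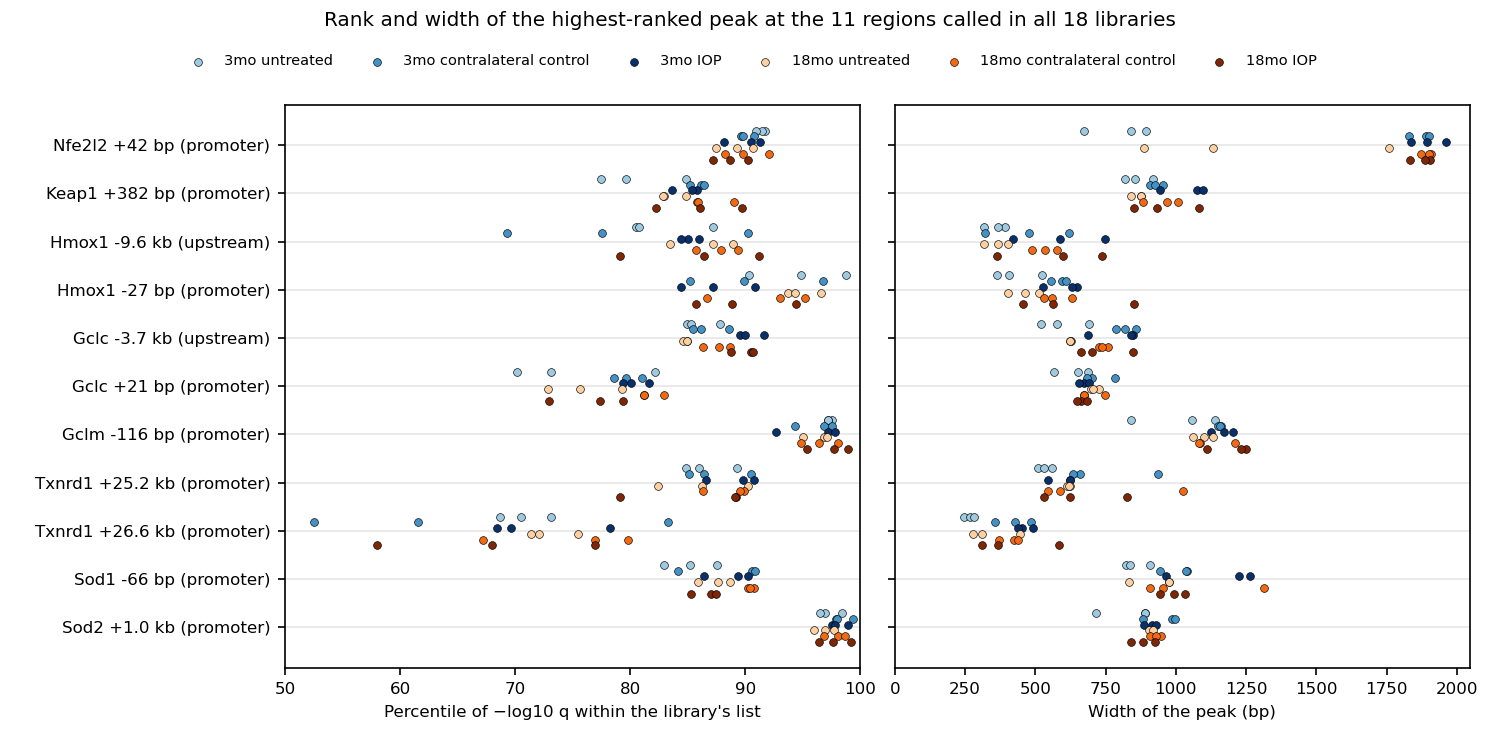
Left, the percentile of −log10 q within the library's own list, and right, the width in bp of the highest-ranked peak, at the 11 regions called in all 18 libraries (rows), with 1 point per library coloured by group; the left axis starts at 50. Sod2 and Gclm lie at the top of the lists (92.7 or higher), the second Txnrd1 region spreads most (52.6 to 83.3), and Nfe2l2 peaks are 1831 to 1961 bp wide in all but the untreated libraries.

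No region and none of the 10 genes passed a test for age. Of the 25 regions, 0 had an unadjusted p under 0.05 in either direction between 18mo and 3mo controls (Fisher's exact test, two-sided; smallest p = 0.182), against 0.428% of all consensus regions called more often at 18 months and 0.0517% called more often at 3 months. Only 2 of the 25 were called in a number of libraries that lets the exact p fall under 0.05. Of the 10 genes, 0 passed in number of peaks (exact permutation test, smallest p = 0.242), against 1.93% of all genes; 4 genes had more peaks at 18 months, 4 fewer and 2 the same. The median difference was 0 peaks, against 0.167 over all genes tested. The 10 windows together held 19.5 ± 2.07 peaks in 18mo and 19.3 ± 2.58 in 3mo controls (SD, n = 6). Within untreated retinas the values were 18.3 ± 2.31 and 19.7 ± 2.08, and within contralateral controls 20.7 ± 1.15 and 19.0 ± 3.46 (SD, n = 3), so that the direction differed between the kinds of control. No region of the 25 was called in 3 of 3 libraries of one age and 0 of 3 of the other within either kind. The share of all consensus regions with such calls is not given here, so this count is a description only. Over all features, 353 regions and 296 genes had an unadjusted p under 0.05 and none an adjusted p under 0.05.

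IOP over both ages gave 0 of 25 regions with an unadjusted p under 0.05 (two-sided exact conditional test with age as stratum, smallest p = 0.1), against 0.122% of all consensus regions called more often in IOP and 0.260% called more often in contralateral controls; 3 of the 25 could have passed. Of the 7 genes whose number of peaks varied, 0 passed (smallest p = 0.4, exact permutation test within age), against 1.47% of all genes. Over both ages together all 7 had fewer peaks in IOP than in contralateral controls and the other 3 the same number. The median difference over the 7 was −0.333 peaks, beside −0.167 over all genes tested. The mean difference was −0.233 over the 10 genes and −0.230 over all protein-coding genes. At 3 months alone Keap1 and Slc7a11 had more peaks in IOP (1 and 0.667), and Nqo1, Gclc and Txnrd1 fewer. Over all features, 281 regions and 199 genes had an unadjusted p under 0.05 and none an adjusted p under 0.05. At 3 months the 10 windows together held 19.0 ± 1.0 peaks in IOP and 19.0 ± 3.46 in contralateral controls (SD, n = 3). At 18 months they held 14, 16 and 18 peaks in IOP (16.0 ± 2.0) and 20, 20 and 22 in contralateral controls (20.7 ± 1.15), 22.6% fewer and without overlap, while the whole lists were 21.2% shorter. Per 10000 peaks of the list the 18mo values were 3.62 ± 0.309 in IOP and 3.68 ± 0.338 in contralateral controls.

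Between the kinds of control, 0 of the 25 regions had an unadjusted p under 0.05 (Fisher's exact test, two-sided, smallest p = 0.182), against 0.745% of all consensus regions called more often in contralateral and 0.790% more often in untreated retinas (1129 in all, none with an adjusted p under 0.05). Counting a call only from a peak as wide as 50% or more of the merged region, 4 of the 25 were called more often in contralateral than in untreated libraries: Txnrd1 +26574 and the Nqo1 promoter (6 against 1 of 6 each), and Hmox1 −9633 and Keap1 −5363 (5 against 0 of 6 each), all with an unadjusted p = 0.0152 and an adjusted p = 0.0291 (Fisher's exact test). Under that setting 7274 (10.6%) of the 68321 regions tested had an unadjusted p under 0.05, in either direction. All 7274 also had an adjusted p under 0.05. At 9 of the 11 regions called in all 18 libraries the untreated lists had the narrowest peaks by their median, with Gclc +21 and Txnrd1 +25233 as exceptions. At Hmox1 −9633 the median width was 368 bp in untreated lists, against 419 bp in the short class and 597 bp in the long class.

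Genes around the same pathway also had open promoters in most cases. Of 40 other genes of glutathione, thioredoxin, heme, iron and NADPH metabolism and of NRF2 control, 37 had a promoter region called in all 18 libraries, 2 had one in 1 library (Gsta4 and Osgin1) and Sod3, the extracellular superoxide dismutase, had none. Among all protein-coding genes 53.1% had one in all 18 libraries and 35.8% had none. No test of this difference was made. For age, 0 of the 37 whose number of peaks varied had an unadjusted p under 0.05. For IOP, 1 of 26 did: Maff, a small MAF partner of NRF2, held 2 peaks in each of the 6 IOP libraries and 2.83 ± 0.408 (SD, n = 6) in contralateral controls (−0.833, p = 0.02, exact permutation test within age, adjusted p = 1), and 1.47% of all genes had an unadjusted p under 0.05. Between the kinds of control 5 of 37 did, against 10.1% of all genes: Txnrd2 and Mafk had more peaks in contralateral retinas (1.33 and 1 more) and G6pdx, Fth1 and Gsta4 fewer (by −1.67, −0.833 and −1.67), with unadjusted p-values from 0.00433 to 0.0368 and no adjusted p under 0.05 (smallest 0.211, exact permutation test).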

How the data were processed

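ATAC-seq libraries of 18 whole mouse retinas were analysed from the deposited MACS2 narrowPeak lists (1 per library, replicates not pooled, q of at most 0.05, build mm10). The authors' score is 10 times the −log10 q-value, cut to a whole number, their fold is the ratio of the summit to local background, and the deposited −log10 of p and q belong to the summit. These values described and ranked peaks within a list. STAR 2.7.8a, HOMER, edgeR and bedtools 2.29.2 stand in the submitters' processing notes without a role; read filters and a transposase shift are not given in the sources used here. The text on preparation shared by all samples also describes crosslinking and immunoprecipitation, whereas its methods section has fresh nuclei transposed.

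Here peaks were merged (overlap of at least 1 bp), regions found in 2 or more libraries were tested by calls, and peaks were counted per window of 21938 protein-coding genes (GENCODE M21; pandas 2.3.3, scipy 1.17.1). A region belonged to a gene when it overlapped the window. Age (6 against 6 controls) and the kind of control used Fisher's exact test, IOP an exact conditional test stratified by age, and peak numbers exact permutation tests (924 or, within age, 400 arrangements), all two-sided, with Benjamini-Hochberg adjustment over all regions whose exact p can fall under 0.05 or over all genes whose number varied. The smallest possible p is 0.00216 for 6 against 6, 0.005 within age and 0.1 for 3 against 3, so calls at 1 age were counted when 3 of 3 and 0 of 3 libraries had them. The tests for age, IOP and the kind of control were checked on simulated data. The test of the difference in IOP effect between ages and the replicate block were not. The members and lists were chosen with earlier results of these data known. Every member was described; the sequences with an element match, called in all libraries first, were to be printed, and pathway genes were named at an unadjusted p under 0.05. Same-numbered libraries did not deviate together, so numbers were not used as pairs. A missing call is no measured absence of open chromatin. No 2 libraries shared more than 0.105% of peak intervals. Further marker genes are not reported here.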

Additional observations from a re-analysis of the deposited data

Results flagged for a closer look

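The IOP effect on the number of Keap1 peaks differed between ages: 18mo minus 3mo it was −2.33 peaks (exact permutation test within age, p = 0.005, the smallest these arrangements can give, adjusted p = 1). All 3 libraries of 3mo IOP had more peaks than every contralateral control of that age and all 3 of 18mo IOP had fewer. Leaving out any 1 of the 12 libraries gave −2.5 to −2. The difference did not pass 0.05 in 3 other settings: it was −1.33 (p = 0.2) under a stricter threshold, −1 (p = 0.1) with equal list lengths and −1.33 (p = 0.05) with windows from 2 kb upstream (exact permutation tests).

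Among the 6 controls of an age, a single library stood above the others in 8 of 22 sets of peak numbers checked. At 18 months the highest library held 4 peaks for Keap1, 3 for Hmox1, 3 for Gclc and 2 for Sod2. At 3 months the highest held 3 for Gclc, 2 for Gclm, 2 for Sod1 and 2 for Sod2. In each of these sets 1 library had exactly 1 peak more than the other 5. Chance marks about 1 in 20 sets of continuous values in this way; peak numbers are small whole numbers with ties, for which that rate does not hold.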

How the results depend on the processing

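Region and gene results were recomputed under a stricter threshold, equal list lengths, a consensus of at least 4 libraries, 50% cover, other windows, scaling to the list's length, strata of control kind and of peak-length class, and without each library. Of the recomputed values for the comparisons, 171 stayed within 1.5 times the main count or 1 SD (2.16 peaks) and 9 did not. No value past a test's threshold changed sign. The age difference in peaks over the 10 windows (0.167, within 1 SD of 0) turned to −0.167 under the stricter threshold, −1 with equal list lengths, −1.16 when scaled and −1.33 in untreated retinas alone, and lay between −0.333 and 0.9 when a library was left out. The 1 region exclusive to IOP at 3 months became 0 under the stricter threshold and with equal list lengths. At 18 months the 1 lost region became 0 when windows began 2 kb upstream. Keap1 −2193 lies outside those windows, and its calls were unchanged. The number lost was 1 to 2 when a library was left out (Slc7a11 +61891 was added without 18mo contralateral replicate 1 and Slc7a11 −1901 without replicate 2). The IOP difference in peaks over the 10 windows at 3 months moved from 0 to −2.33 under the stricter threshold. At 18 months it moved from −4.67 to −0.667 with equal list lengths and to −0.290 when scaled to a list of mean length. Regions differing between kinds of control went from 0 to 4 with 50% cover. The Keap1 difference between ages was −1.33 (p = 0.05, exact permutation test) with windows from 2 kb, which leave out Keap1 −2193 and Keap1 −5363. The cause of the other shifts was not tested.

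Same-numbered IOP and contralateral libraries had correlations of deviations from −0.0898 to 0.0974, and differently numbered ones from −0.1515 to 0.1435. The numbers were therefore not used as pairs. This does not show that same-numbered retinas came from separate animals. A replicate block takes the numbers as pairs. With it, 0 regions and 0 genes passed for age and 0 and 0 for IOP (exact sign-flip test). A pass required every pair to differ in the same direction, which the calls of no region of these genes did. No conclusion is therefore drawn from the block. The lists give no read depth, so a weak region cannot be told from a closed one.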
